A study of Homo sapiens with 7 samples.

Results

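Translation factors and aminoacyl-tRNA synthetases were taken as every region whose nearest gene has a symbol of an eukaryotic initiation factor (EIF and a digit), an elongation factor (EEF and a digit), a release factor (ETF1, GSPT1, GSPT2) or a synthetase (a symbol ending in ARS, ARS1 or ARS2, FARSA, FARSB or EPRS1). The rule found 65 of the 8815 regions that the authors listed as changed in accessibility, at 47 of the 5939 nearest-gene symbols. All 65 were listed as increased after PHF19 knockdown and 0 as decreased. Initiation held 31 of these regions at 25 symbols, elongation 7 at 4, termination 1 at 1, and the synthetases 26 at 17.

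The assay was ATAC-seq, in which a transposase cuts and tags open chromatin, in Kasumi-1, an established acute myeloid leukaemia cell line with the RUNX1-RUNX1T1 fusion. The shPHF19 group (3 libraries) received a lentiviral shRNA against PHF19, a Polycomb-like protein that works with Polycomb repressive complex 2, and the Control group (4 libraries) received a scrambled shRNA in its place. Puromycin (2 µg/ml) was applied to both groups from 48 hours after shRNA delivery, for 24 hours or longer, and 10000 cells went into each library. No label states that replicate libraries are separate cultures, so the authors' p-values reflect only how these libraries vary, and that variation may be technical. The comparison asks how lowering PHF19 alters accessible chromatin. PHF19 RNA was not analysed here, so the knockdown itself cannot be checked. Of 8 progenitor and myeloid marker genes, 4 had an increased region (CD34, KIT, RUNX1 and RUNX1T1), 1 of them at a promoter (RUNX1). MPO, CD33, SPI1 and CEBPA had no listed region. Of 7 markers of other cell types, 0 had one, where the share of all protein-coding genes was 25.2%. A list of changed regions shows neither presence nor absence of a cell type.

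Protein synthesis begins when initiation factors bring the small ribosomal subunit, the initiator tRNA and the messenger RNA together and find the start codon. Elongation factors then deliver charged tRNAs and move the ribosome along, and release factors free the finished chain at a stop codon. Aminoacyl-tRNA synthetases charge each tRNA with its amino acid, with separate enzymes for the cytosol and the mitochondrion in most cases. These are housekeeping genes, expressed in nearly all cells, and their promoters are usually open CpG-rich chromatin.

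All means, folds, distances and false discovery rates (FDR) of single regions come from the authors' deposited tables and are the authors' own. A level is the authors' mean normalised read count of a group, and a fold is the authors' log2 fold of shPHF19 over Control. The tables hold no value per library, so no SD or n can be attached and the depth of each library is unknown here. A region entered the tables only past the authors' FDR threshold of 0.05, so the folds describe selected regions. A gene without a listed region is not shown to be unchanged. Positions are as deposited and are read as hg19. Promoter here means at most 3 kb from a transcription start site (TSS). Of the 65 regions, 61 were 401 bp wide, so levels can be set side by side for nearly all of them. The wider ones were at EEF1B2 (920 bp), EIF3A (1007 bp), EIF4H (571 bp) and IARS2 (746 bp).

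Promoter sequences are shown for EEF1A1 and EEF2, the factors that carry out elongation, and for the pairs of initiation genes and synthetases whose promoter regions had the lowest FDRs. Each is the 250 bases that precede the gene start, 5′ to 3′ in the direction of transcription, from RefSeq on build GRCh38.p14, and its position is on that build, not that of the regions. Capitals mark matches to the searched motifs on either strand.
EEF1A1, chr6:73521033-73521282, minus strand: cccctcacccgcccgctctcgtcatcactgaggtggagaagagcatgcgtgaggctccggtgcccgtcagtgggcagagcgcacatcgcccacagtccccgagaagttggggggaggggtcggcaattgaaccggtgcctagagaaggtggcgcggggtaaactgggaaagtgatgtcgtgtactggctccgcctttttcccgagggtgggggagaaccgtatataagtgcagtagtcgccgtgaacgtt
EEF2, chr19:3985464-3985713, minus strand: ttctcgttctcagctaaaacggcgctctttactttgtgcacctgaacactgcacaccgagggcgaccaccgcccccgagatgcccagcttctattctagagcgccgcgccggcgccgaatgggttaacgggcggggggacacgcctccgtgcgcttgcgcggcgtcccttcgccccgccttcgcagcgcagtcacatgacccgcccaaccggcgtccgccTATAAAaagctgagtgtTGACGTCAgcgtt
EIF4A2, chr3:186783327-186783576, plus strand: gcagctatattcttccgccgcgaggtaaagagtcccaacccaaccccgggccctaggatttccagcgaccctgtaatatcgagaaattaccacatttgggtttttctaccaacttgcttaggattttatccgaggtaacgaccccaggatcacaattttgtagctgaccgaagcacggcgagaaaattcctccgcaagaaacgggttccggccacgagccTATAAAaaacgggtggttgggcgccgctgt
EIF2A, chr3:150546537-150546786, plus strand: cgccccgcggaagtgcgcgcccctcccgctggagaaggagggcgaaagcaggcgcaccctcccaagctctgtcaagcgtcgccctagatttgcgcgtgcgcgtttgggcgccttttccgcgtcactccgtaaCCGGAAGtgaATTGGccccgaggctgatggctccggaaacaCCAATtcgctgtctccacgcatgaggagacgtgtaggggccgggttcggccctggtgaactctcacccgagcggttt
RARS1, chr5:168486221-168486470, plus strand: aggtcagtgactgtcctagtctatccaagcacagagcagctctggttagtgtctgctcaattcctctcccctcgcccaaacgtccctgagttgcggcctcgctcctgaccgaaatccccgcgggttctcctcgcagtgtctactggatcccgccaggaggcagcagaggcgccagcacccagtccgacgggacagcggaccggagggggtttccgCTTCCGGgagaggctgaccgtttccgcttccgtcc
TARS1, chr5:33440715-33440964, plus strand: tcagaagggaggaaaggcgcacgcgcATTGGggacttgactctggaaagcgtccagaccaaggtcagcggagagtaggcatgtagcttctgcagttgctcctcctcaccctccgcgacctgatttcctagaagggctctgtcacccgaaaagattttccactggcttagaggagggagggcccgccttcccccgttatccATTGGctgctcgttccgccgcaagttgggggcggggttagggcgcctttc

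EEF2 and EIF4A2 each carried TATAAA 30 bases before the start, and EEF2 also TGACGTCA 13 bases before it. The first of these is the core of the TATA box and the second the full site of CREB and ATF factors. EIF2A held CCGGAAG, an ETS-type site, at 118 bases and CCAAT, the site of NF-Y, reversed at 108 bases and forward at 77 bases. RARS1 held the ETS-type letters on the opposite strand at 35 bases, and TARS1 held reversed CCAAT at 224 and 50 bases. No exact match to a searched motif was found in the EEF1A1 window. It holds tatataag 30 bases before the start, close to the letters TATAAA but not counted as a match. At TARS1, the letters of a composite site of ATF4 and C/EBP (ATTGCATCA on this strand) began at the second base of the transcript, which the 15 bases on each side of the start show.
TARS1 start, chr5:33440950-33440979, plus strand: gttagggcgcctttcgATTGCATCAgctgg

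Increased accessibility was listed at 44 of the 110 protein-coding genes that match the rule in RefSeq (40%), and 42 of them (38.2%) had an increased region at a promoter. Among all 20052 protein-coding genes, 25.2% had an increased region and 17.5% an increased promoter. No gene of the rule had a decreased region, where the share of all protein-coding genes was 0.818%. The share among all genes counts genes with no accessible chromatin as well, whereas the genes of translation are active in nearly every cell. Over regions, the authors listed 16.4% of the 52675 they tested as increased and 0.380% as decreased, so 0 decreased of 65 lies beside a list that is nearly all increases. How the authors normalised the counts is not given, and that balance can depend on it.

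Each class had listed genes, in numbers that were small for elongation and termination. Increased regions were listed at 22 of 56 initiation genes (39.3%), 4 of 14 elongation genes (28.6%), 1 of 3 release factors (33.3%) and 17 of 37 synthetases (45.9%). The share of all protein-coding genes was 25.2%, and that of the elongation genes lay near it. Some genes of the classes encode regulators of the factors. Leaving out kinases, binding proteins and methyltransferases, the counts were 19 of 48 initiation factors (39.6%) and 4 of 7 elongation factors (57.1%), against 3 of 8 initiation regulators (37.5%) and 0 of 7 elongation regulators. The 7 elongation factors are taken by symbol and include EEF1E1, a scaffold of the multi-synthetase complex. No test between classes was made, since the lists were chosen with results known and hold no values per library.

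Other housekeeping families give a scale for these shares. Increased regions were listed at 40 of 86 cytosolic ribosomal protein genes (46.5%), 24 of 77 mitochondrial ribosomal protein genes (31.2%) and 11 of 48 proteasome genes (22.9%). The share for translation factors and synthetases lay between those of the cytosolic and the mitochondrial ribosomal proteins. The median log2 fold was 0.92 for the 65 regions of translation genes, beside 0.85 for cytosolic ribosomal proteins, 0.92 for mitochondrial ribosomal proteins and 0.85 for the proteasome.

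**Figure D1:**
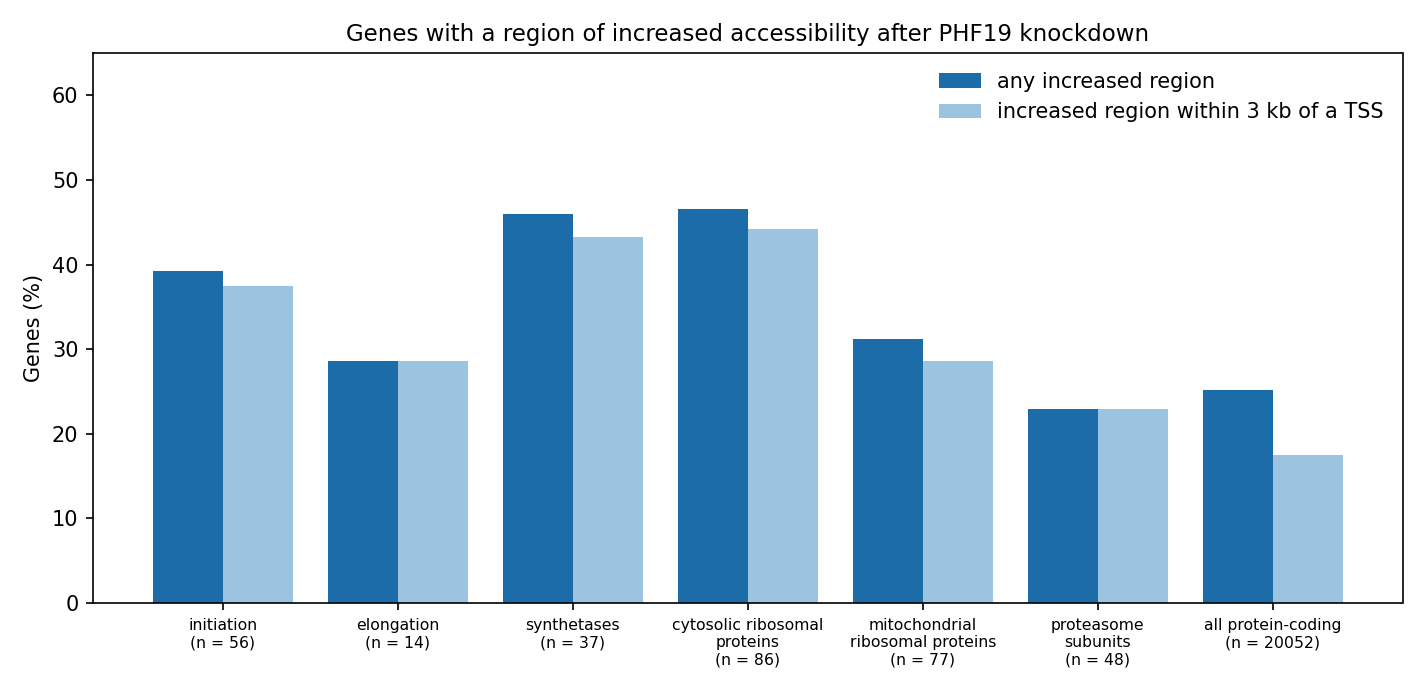
Percentage of genes with an increased region after PHF19 knockdown (dark bars, any distance; light bars, within 3 kb of a TSS) in each class and in other gene families, with the number of genes under each name. Synthetases reach 45.9% and initiation genes 39.3% in the dark bars, beside 25.2% of all protein-coding genes.

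The elongation factors had the largest median fold of the classes. Their 7 regions had a median log2 fold of 1.08 (range 0.81 to 2.11), with 6 of 7 at 1 or more and 7 of 7 at an FDR of at most 0.01. The 31 initiation regions had a median of 0.87 (interquartile range 0.76 to 1.06) and the 26 synthetase regions one of 0.94 (0.76 to 1.02). The order of the class medians is a description of listed regions. The 65 regions together had a median of 0.92 (0.78 to 1.08), and all 8615 increased regions one of 0.97 (0.84 to 1.12). EEF1A1 supplied 4 of the 7 elongation regions, and the other 3 genes spanned 1.05 to 1.13.

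EEF1A1 carries aminoacyl-tRNA to the ribosome and is one of the most highly expressed genes of most cells. It had 4 increased regions on chromosome 6. The region 426 bp inside the transcript (74229915 to 74230315) had 33.4 reads in shPHF19 cells and 5.23 in Control cells, a log2 fold of 2.11 (FDR 2.82e-07). It ranked 4 among the 8615 increased regions by fold. The region over the start (74230702 to 74231102) was far more open in both groups, with 94.6 reads in shPHF19 cells and 51.3 in Control cells, and its log2 fold was the lowest of the class at 0.81 (FDR 0.00167). A region 2.48 kb upstream (74233231 to 74233631) had 36.8 and 15.6 reads in shPHF19 and Control cells (1.01, FDR 0.00324). A region 1501 bp beyond the end of the gene (74223572 to 74223972) had 22.2 reads in shPHF19 cells and 4.93 in Control cells (1.58, FDR 0.000194). RefSeq names 50 pseudogenes of EEF1A1, and how reads with several matches were placed is not given. Reads in sequence shared with pseudogenes are therefore of uncertain origin. Which of the 4 regions hold such sequence was not checked.

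The other elongation factors each had 1 increased region over the start. EEF2, the translocase that moves the ribosome by a codon, had 55.9 reads in shPHF19 cells and 22.7 in Control cells on chromosome 19 (3985331 to 3985731; log2 fold 1.13, FDR 0.00021). EEF1B2 and EEF1D encode subunits of the complex that reloads eEF1A with GTP. EEF1B2 had 57.8 reads in shPHF19 cells and 24.2 in Control cells on chromosome 2 (207024100 to 207025019; 1.08, FDR 0.000312). That region is 920 bp wide, so its level is not comparable with those of EEF2 and EEF1D. EEF1D had 81.3 reads in shPHF19 cells and 36.1 in Control cells on chromosome 8 (144679508 to 144679908; 1.05, FDR 0.000123). EEF1G, the third subunit, the tissue-restricted EEF1A2 and EEF1E1, a scaffold of the multi-synthetase complex, had no listed region. Nor had EEF2K, the kinase that inactivates eEF2, or any of the 6 methyltransferase genes.

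**Figure D2:**
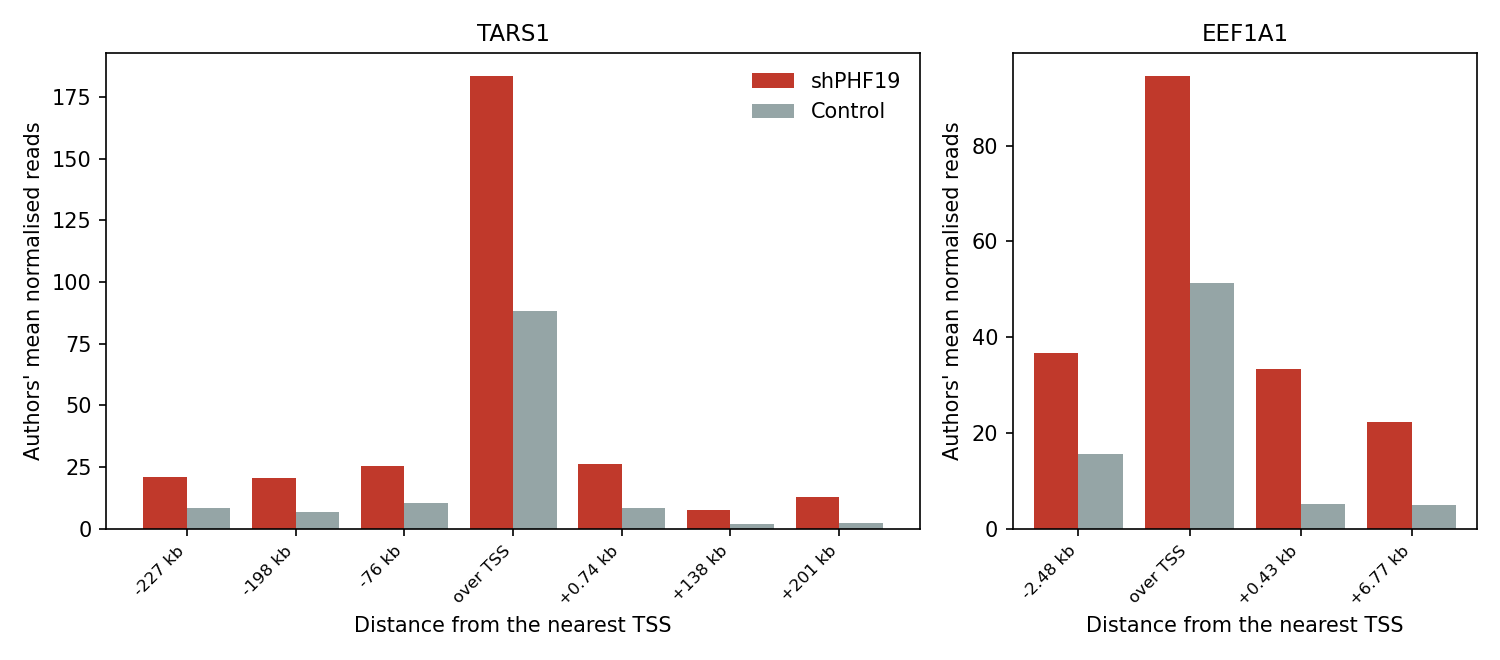
Authors' mean normalised reads in shPHF19 (red) and Control (grey) at each listed region of TARS1 and EEF1A1, against the distance from the nearest TSS. At EEF1A1 the start region has the tallest bars (94.6 and 51.3 reads), while the region 0.426 kb inside has 33.4 and 5.23 reads.

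Among initiation genes the largest folds at coding genes belonged to the eIF4 group, which recruits the messenger RNA. EIF4A2 encodes one of the paralogous helicases that unwind the leader. On chromosome 3 its region 103 bp upstream (186500858 to 186501258) had 53.5 reads in shPHF19 cells and 16.2 in Control cells (log2 fold 1.43, FDR 2.27e-05). The start itself lies between this region and a second one. A region 409 bp downstream (186501770 to 186502170) had 24.0 reads in shPHF19 cells and 9.29 in Control cells (1.05, FDR 0.00682). EIF4A3, a paralogue that sits in the exon junction complex, had 96.0 and 44.7 reads in shPHF19 and Control cells (0.97, FDR 0.00126), and EIF4A1 had no listed region.

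EIF4G2 (DAP5), a relative of eIF4G that lacks the eIF4E-binding part, had 2 increased regions on chromosome 11, each over an annotated start. The weaker one (10829704 to 10830104) had 22.6 reads in shPHF19 cells and 5.75 in Control cells (log2 fold 1.45, FDR 0.000546). The stronger one (10830359 to 10830759) had 94.8 reads in shPHF19 cells and 52.4 in Control cells (0.78, FDR 0.00462). The larger fold lay at the region with the lower Control level, unlike at EIF4A2.

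EIF4B and EIF4H stimulate the helicase. EIF4B, on chromosome 12, had 111 and 61.9 reads in shPHF19 and Control cells over the start (53399870 to 53400270; log2 fold 0.76, FDR 0.00512). A region 496 bp downstream (53400558 to 53400958) had 30.0 reads in shPHF19 cells and 14.1 in Control cells (0.85, FDR 0.0213). EIF4H had 20.0 reads in shPHF19 cells and 6.54 in Control cells 35 bp downstream of its start (1.18, FDR 0.00378). On the cap-binding side, 0 of 4 eIF4E genes had a listed region, where the share of all protein-coding genes was 25.2%. So few genes allow no reading about that side. EIF4G1 and EIF4G3 had no listed region either, unlike EIF4G2. EIF4EBP1, the mTOR-controlled repressor of eIF4E, had 14.1 reads in shPHF19 cells and 5.35 in Control cells (0.92, FDR 0.0388), while EIF4EBP2 and EIF4EBP3 had no listed region.

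eIF3, the large scaffold on the small subunit, had 6 of 14 genes listed, 5 of them at the promoter. The shares of all protein-coding genes were 25.2%, and 17.5% at the promoter. EIF3B, a core subunit, had 46.6 reads in shPHF19 cells and 16.6 in Control cells 317 bp upstream on chromosome 7 (2393757 to 2394157; log2 fold 1.23, FDR 0.000154). EIF3H followed with 29.2 reads in shPHF19 cells and 11.3 in Control cells (1.07, FDR 0.00458). EIF3D (0.85), EIF3A (0.76) and EIF3F (0.76) had smaller folds, and their FDRs ran from 0.00487 to 0.0124. EIF3M was listed only for a region in intron 6 of 10, which rested on 11.1 reads in shPHF19 cells and 3.87 in Control cells (0.91, FDR 0.0478). EIF3C, EIF3CL, EIF3E, EIF3G, EIF3I, EIF3J, EIF3K and EIF3L had no listed region.

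The factors that bring and position the initiator tRNA had mostly modest folds. EIF2A, which can bring the initiator tRNA without eIF2, had the largest fold among them, with 97.4 reads in shPHF19 cells and 40.8 in Control cells (log2 fold 1.13, FDR 2.92e-05). Of eIF2 itself, only EIF2S3, the GTP-binding gamma subunit on the X chromosome, was listed, with adjoining regions. The upstream one (24072282 to 24072682) had 26.1 reads in shPHF19 cells and 12.9 in Control cells (0.81, FDR 0.0288), and the one over the start (24072682 to 24073082) had 22.5 and 10.7 (0.79, FDR 0.0489). Of the exchange factor eIF2B, 1 of 5 genes was listed (20%), near the 25.2% of all protein-coding genes. It was EIF2B1 (0.87, FDR 0.00314). EIF1B (0.92), a paralogue of EIF1, and EIF1AX (0.74), which acts in scanning and start codon choice, were listed, as were EIF5 (0.64), the GTPase activator, and EIF5B (0.72), which joins the subunits. EIF5A2, whose protein acts in elongation despite its name, had a log2 fold of 0.71, and EIF5A had no listed region. EIF6, EIF2D and EIF1 had none either.

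Kinases that phosphorylate eIF2 and so lower initiation were listed in 2 of 4 cases, where the share of all protein-coding genes was 25.2%. EIF2AK3 (PERK), the sensor of the endoplasmic reticulum, had one of the most open promoters of the set, 141 reads in shPHF19 cells and 85.7 in Control cells, with a log2 fold of 0.65 (FDR 0.00682). EIF2AK1 (HRI), the haem-regulated kinase, had 56.3 reads in shPHF19 cells and 28.2 in Control cells over its start on chromosome 7 (6098639 to 6099039; 0.83, FDR 0.0146). A region 22.1 kb upstream (6120971 to 6121371) had 87.7 reads in shPHF19 cells and 50.8 in Control cells (0.69, FDR 0.0183). EIF2AK2 and EIF2AK4 had no listed region.

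Of the 25 initiation symbols, 3 encode no protein. EIF1B-AS1 and EIF3J-DT are non-coding transcripts that start beside EIF1B and EIF3J in the opposite direction. Between EIF1B and EIF1B-AS1 the starts lie 9 bp apart in RefSeq, and the region assigned to EIF1B-AS1 on chromosome 3 (40351405 to 40351805) had 19.4 reads in shPHF19 cells and 4.74 in Control cells (log2 fold 1.40, FDR 0.00134). It lies beside the EIF1B region (40350932 to 40351332), which had 75.9 reads in shPHF19 cells and 37.4 in Control cells (0.92, FDR 0.00106). The EIF3J-DT region had 49.6 reads in shPHF19 cells and 22.6 in Control cells (0.97, FDR 0.00147). EIF3IP1 is a pseudogene on chromosome 7, named only as the nearest gene to distant regions. They lay 116 kb downstream (109483526 to 109483926; 16.8 reads in shPHF19 cells and 3.36 in Control cells, 1.49, FDR 0.0011) and 482 kb upstream (110082353 to 110082753; 10.6 reads in shPHF19 cells and 3.70 in Control cells, 0.92, FDR 0.0468).

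ETF1 (eRF1), which reads the stop codon, was the single release factor listed. Its start on chromosome 5 (137878806 to 137879206) had 82.4 reads in shPHF19 cells and 41.4 in Control cells (log2 fold 0.89, FDR 0.00167). GSPT1 and GSPT2, which encode its GTPase partners, had no listed region.

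**Figure D3:**
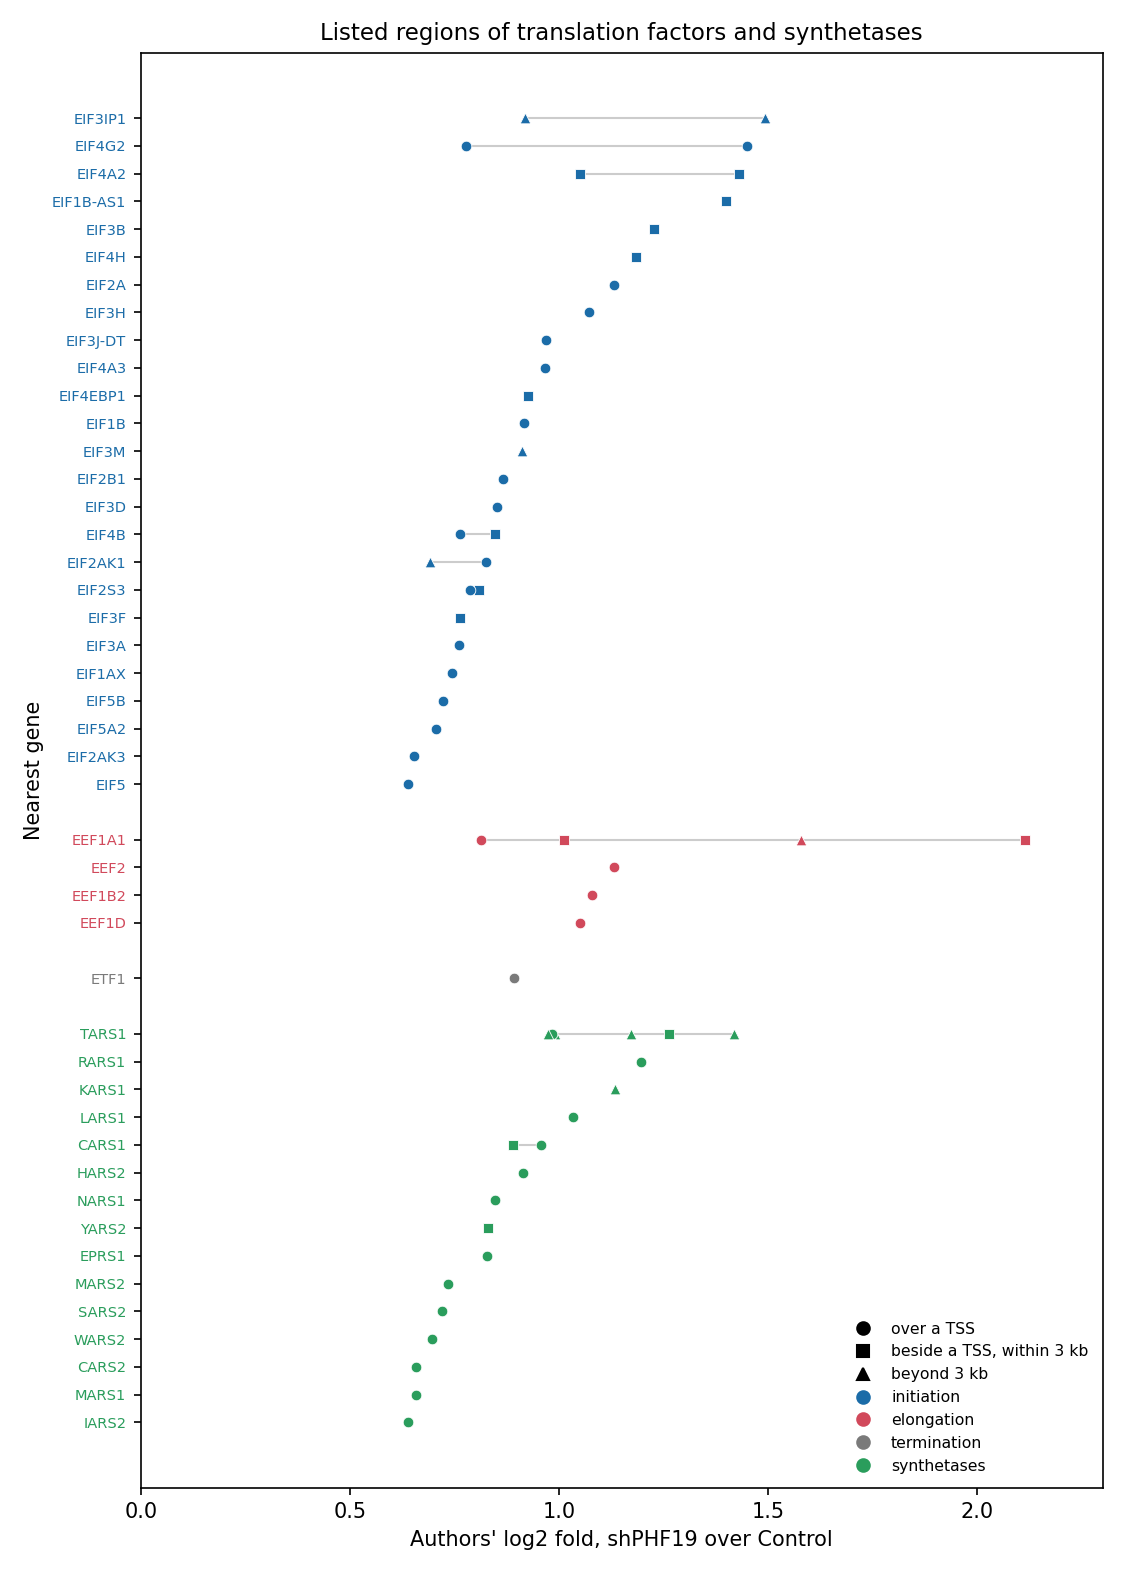
Authors' log2 fold of shPHF19 over Control for 61 of the 65 regions, by nearest gene and class (circle, over a TSS; square, within 3 kb of one; triangle, more distant). Every point lies above 0, from 0.64 at EIF5 and IARS2 to 2.11 at EEF1A1.

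Both cytosolic and mitochondrial synthetases were listed. Increased regions were listed at 8 of 18 cytosolic genes (44.4%), 8 of 17 mitochondrial genes (47.1%) and 1 of 2 genes that serve both compartments. The share of all protein-coding genes was 25.2%. The 10 promoter regions of the cytosolic genes had a median log2 fold of 0.92 (3 of 10 at 1 or more), and the 8 of the mitochondrial genes one of 0.73 (0 of 8 at 1 or more). The median Control level was 25.2 reads at the cytosolic and 23.4 reads at the mitochondrial promoters. No test of this difference was made.

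TARS1, the threonine enzyme, had the most regions of any gene of translation, 7 on chromosome 5. Its start (33440786 to 33441186) was the most open of the 65 regions in both groups, with 184 reads in shPHF19 cells and 88.2 in Control cells (log2 fold 0.98, FDR 3.4e-06). A region 742 bp downstream (33441624 to 33442024) had 26.2 reads in shPHF19 cells and 8.23 in Control cells (1.26, FDR 0.00118). The ATF4-type letters shown at the TARS1 start belong to this promoter.

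Upstream of TARS1, in the stretch towards NPR3, 3 regions were listed. They lay 227 kb (33213068 to 33213468), 198 kb (33241950 to 33242350) and 75.9 kb (33364506 to 33364906) from the start, with 20.9, 20.4 and 25.2 reads in shPHF19 cells and 8.37, 6.80 and 10.4 in Control cells. Their log2 folds were 0.99, 1.17 and 0.98 (FDR 0.0124, 0.00443 and 0.0101). Downstream, 2 regions lay within introns 18 and 10 of 23 of ADAMTS12, which encodes a secreted metalloprotease, so assigning them to TARS1 rests on distance to a start alone. The nearer one (33579005 to 33579405) had 7.75 reads in shPHF19 cells and 1.93 in Control cells (0.97, FDR 0.0403), and the farther one (33642231 to 33642631) had 12.9 and 2.33 (1.42, FDR 0.00263).

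Cytosolic promoters with larger folds were those of RARS1 and LARS1, both on chromosome 5. RARS1, the arginine enzyme, had 38.2 reads in shPHF19 cells and 14.0 in Control cells (167913212 to 167913612; log2 fold 1.20, FDR 0.000441). LARS1, the leucine enzyme, had 62.1 reads in shPHF19 cells and 27.1 in Control cells (145562110 to 145562510; 1.03, FDR 0.000607). Both proteins are parts of the multi-synthetase complex. CARS1, the cysteine enzyme on chromosome 11, had 47.2 and 21.4 reads in shPHF19 and Control cells over the start (3078515 to 3078915; 0.96, FDR 0.00256). A region 278 bp downstream (3078003 to 3078403) had 13.6 reads in shPHF19 cells and 5.41 in Control cells (0.89, FDR 0.0438). CARS1 was thus open over and beside its start, with a lower level beside it in both groups. NARS1 (0.85), EPRS1 (0.83) and MARS1 (0.66), for asparagine, glutamate with proline, and methionine, were also listed. KARS1, which makes the lysine enzyme of both compartments, was listed only through a region 115 kb upstream on chromosome 16 (75798040 to 75798440; 11.1 reads in shPHF19 cells and 2.74 in Control cells, 1.13, FDR 0.0152).

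Several cytosolic synthetases form one multi-synthetase complex. Of its 8 synthetase genes, 6 were listed (75%), among them EPRS1, KARS1, LARS1, MARS1 and RARS1. The share was 45.9% of all synthetases and 25.2% of all protein-coding genes. At the promoter, 5 of the 8 had a region (62.5%), where the share of all protein-coding genes was 17.5%. KARS1 was listed only through its distal region. IARS1 and QARS1 were not listed. The complex also holds AIMP1, AIMP2 and EEF1E1, which are not synthetases and are left out of the 8, and none of them was listed. This list of members is textbook knowledge, and it was drawn up with results known.

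All 8 mitochondrial regions lay at promoters. In descending order of log2 fold they included those of HARS2 (0.92), YARS2 (0.83), MARS2 (0.73), SARS2 (0.72), WARS2 (0.70), CARS2 (0.66) and IARS2 (0.64). The FDR was 0.01 or lower for 2 of the 8, among them HARS2, with 37.5 reads in shPHF19 cells and 17.1 in Control cells (FDR 0.00808). Neighbours in this order differ by little, and no spread between libraries is available to separate them. Cytosolic and mitochondrial partners were both listed for cysteine and for methionine. Synthetases without a listed region were AARS1, AARS2, EARS2, FARS2, FARSA, FARSB, GARS1, HARS1, IARS1, LARS2, NARS2, PARS2, QARS1, RARS2, SARS1, TARS2, VARS1, VARS2, WARS1 and YARS1.

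Most of the 65 regions lay at promoters. Promoters held 52 of the 65 regions (80%), against 50.1% of all increased regions. A high promoter share was also found in like families: 90.7% for cytosolic ribosomal proteins, 91.7% for the proteasome and 72.7% for mitochondrial ribosomal proteins. By class the share was 87.1% for initiation, 85.7% for elongation and 69.2% for synthetases, or 84.2% for synthetases without TARS1. Within promoters alone the median log2 fold was 0.88 for these genes and 0.89 for all 4318 increased promoter regions. Distance to the start divided the regions further. The 38 regions over a start had a median of 0.84 and the 14 beside a start one of 1.03, where all increased regions gave 0.87 and 0.94. The 13 distal regions, at 7 symbols, had a median of 0.99 and all distal ones 1.02.

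For 5 genes a region over the start and one beside it could be compared, in 6 pairs. The log2 fold was larger beside the start in 5 of the 6, CARS1 being the exception, and the Control level was lower beside it in 5 of the 6, EIF2S3 being the exception. Across the 65 regions, Spearman's rho between Control level and log2 fold was −0.587, and −0.554 across all increased regions. Within the 52 promoter regions rho was −0.513, and within the 13 distal regions 0.016. Across all increased regions it was −0.462 for the 4318 at promoters and −0.405 for the 4297 distal ones. These are descriptions over regions that share libraries. The Control level is part of the fold and the FDR threshold removes small folds at low levels, so a negative rho is built into such a list. The Control level lay under 10 reads in 29.2% of the 65 regions and in 46.7% of all increased regions, sets that differ in their promoter share. Within promoters the median Control level was 25.1 reads for these genes and 22.9 for all increased regions.

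**Figure D4:**
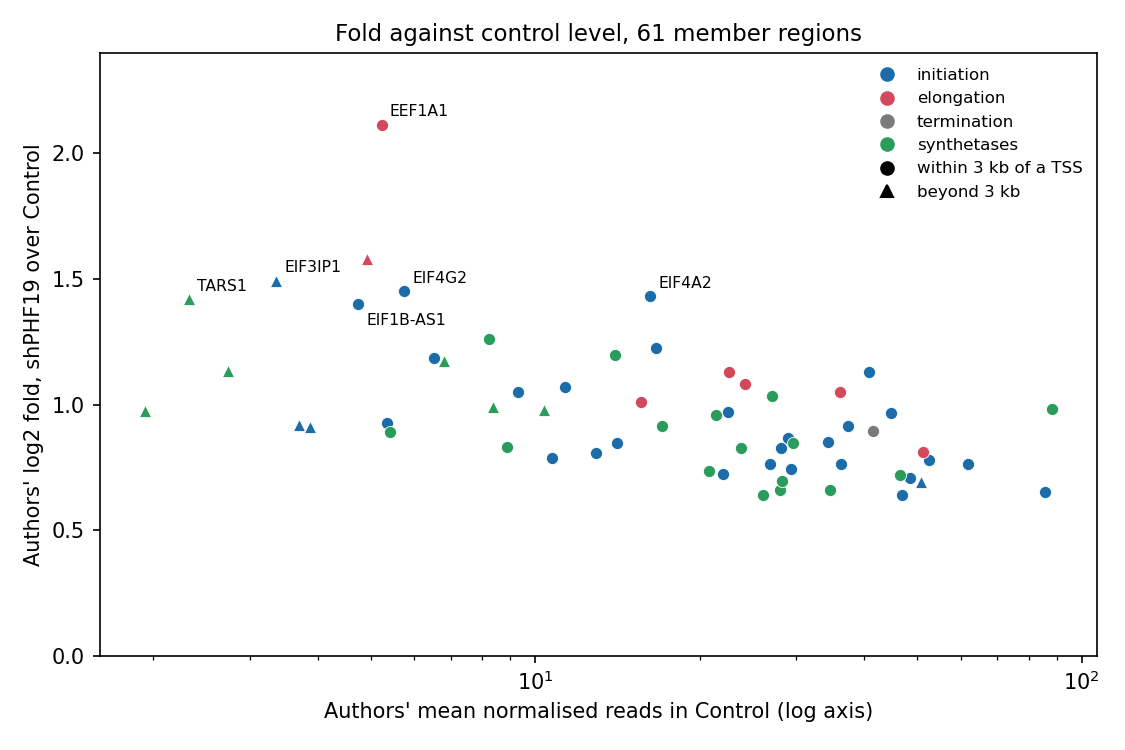
Authors' log2 fold of shPHF19 over Control (vertical) against the authors' mean normalised reads in Control (horizontal, log axis) for 61 of the 65 regions, coloured by class, with triangles for regions beyond 3 kb of a TSS. The largest log2 fold, 2.11 at EEF1A1, has a Control level of 5.23 reads, and the most open region, the TARS1 start with 88.2 Control reads, has a log2 fold of 0.98.

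Stricter limits left fewer genes. A log2 fold of at least 1 was reached at 15 of 110 genes (13.6%), where the share of all protein-coding genes was 11.3%. An FDR of at most 0.01 was reached at 26 of 110 (23.6%), where the share was 13.9%. By class, log2 folds of at least 1 were listed at 6 of 56 initiation genes, 4 of 14 elongation genes and 5 of 37 synthetases. Most genes had a single region: 37 of 47 symbols had 1, 7 had 2 and 3 had more, among them TARS1 and EEF1A1, and 21.3% had at least 2, against 28.8% of the 5776 genes with an increased region.

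The chromosomes differ in how many of their genes were listed. Chromosome 5 had 5 of 8 member genes listed (ETF1, HARS2, LARS1, RARS1 and TARS1) and 11 of the 65 regions, and 44.3% of all its protein-coding genes were listed. Chromosome 7 had 3 of 4 (EIF2AK1, EIF3B and EIF4H), and 51.5% of all its genes. Both are chromosomes on which a large share of all genes was listed. Chromosome 16 had 1 of 8, by the distal KARS1 region, and 10.3% of all its genes. Chromosome 1 had 4 of 12 and 18.7% of all its genes. These values stand beside the members' counts, and their part in them was not tested.

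A region between divergent genes is assigned to one of them only. In RefSeq, 8 of the 34 members with an increased promoter and a promoter sequence start within 1000 bp of an oppositely directed gene (23.5%), against 26.9% of all such genes with an increased promoter. HARS2 and HARS1 start 85 bp apart, EEF1B2 and NDUFS1 165 bp, SARS2 and MRPS12 181 bp, EIF2B1 and GTF2H3 143 bp, and EIF2A and SERP1 291 bp. In each of these pairs the region was assigned to the first-named gene. In the other direction, EIF2S1, EIF3J, HARS1 and RARS2 have no region of their own but share a divergent start with a gene whose promoter was increased.

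Promoter letters were compared for the 34 members with an increased promoter and a RefSeq sequence, 55 members without one and all 15842 protein-coding promoters, from 250 bases before to 50 after the start, on both strands. The ETS-type CCGGAAG was found in 12 of 34 (35.3%), 17 of 55 (30.9%) and 14.2% of all. The E-box CACGTG, bound by MYC and related factors, was found in 8 of 34 (23.5%), 11 of 55 (20%) and 8.88% of all. CCAAT was found in 15 of 34 (44.1%), 24 of 55 (43.6%) and 36.4% of all. Among all 3001 protein-coding genes with an increased promoter and a sequence, the shares were 22.6% for CCGGAAG, 11.3% for CACGTG and 35.8% for CCAAT. The shares of the 34 members lay above these by less than they lay above all promoters for the first and second motif, and no test was made. A match is a run of letters and not evidence of binding.

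Rarer motifs were at 3 promoters or fewer of the 34. The YY1-type AAGATGGCG was in 3 (NARS1, WARS2 and YARS2; 2.74% of all), the NRF1 core GCATGCGC in 2 (MARS2 and YARS2; 4.26%) and TATAAA in 2 (EEF2 and EIF4A2; 9.63%). Of the 55 members without an increased promoter, 5 (9.09%), 2 (3.64%) and 3 (5.45%) held these motifs. Among all 3001 genes with an increased promoter the shares were 4.70%, 6.43% and 5.76%. TGACGTCA was in 1 (EEF2; 2.59%), the CGCG element TCTCGCGA in 1 (WARS2; 1.75%) and TGATGCAAT in 1 (TARS1; 0.177%). Each of these was in 0 of the 55, and in 3.47%, 3.37% and 0.233% of the 3001. TGATGNAAT, which includes TGATGCAAT, gave the same match and 0.625% of all. The ATF4-type site is the rarest of the searched motifs among all promoters. A pyrimidine run near the start was looked for after the data had been seen. It was a C and at least 4 pyrimidines on the sense strand, begun within 10 bases on either side of the start. The run was in 17 of 34 (50%), 19 of 55 (34.5%) and 33.8% of all, and in 34.4% of the 3001 genes with an increased promoter. Transcripts controlled by mTOR open with such a run. Some of the runs counted here lay before the start, as at TARS1, so the counts are not counts of such transcripts. Both classes held both of the following motifs. By class, CCGGAAG was in 6 of 13 synthetases and 4 of 17 initiation genes, and CACGTG in 6 of 17 initiation genes (EIF1B, EIF3F, EIF4A3, EIF4B, EIF4H and EIF5A2) and 2 of 13 synthetases. The GC content had a median of 63.2% for members with an increased promoter, 62.7% for those without and 62.7% for all promoters. It was 65.7% for all 3001 genes with an increased promoter. Of the 42 members with an increased promoter, 34 matched a sequence, and EEF1D, EIF2AK1, EIF3A, EIF3H, EIF4EBP1 and LARS1 were among those not matched.

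**Figure D5:**
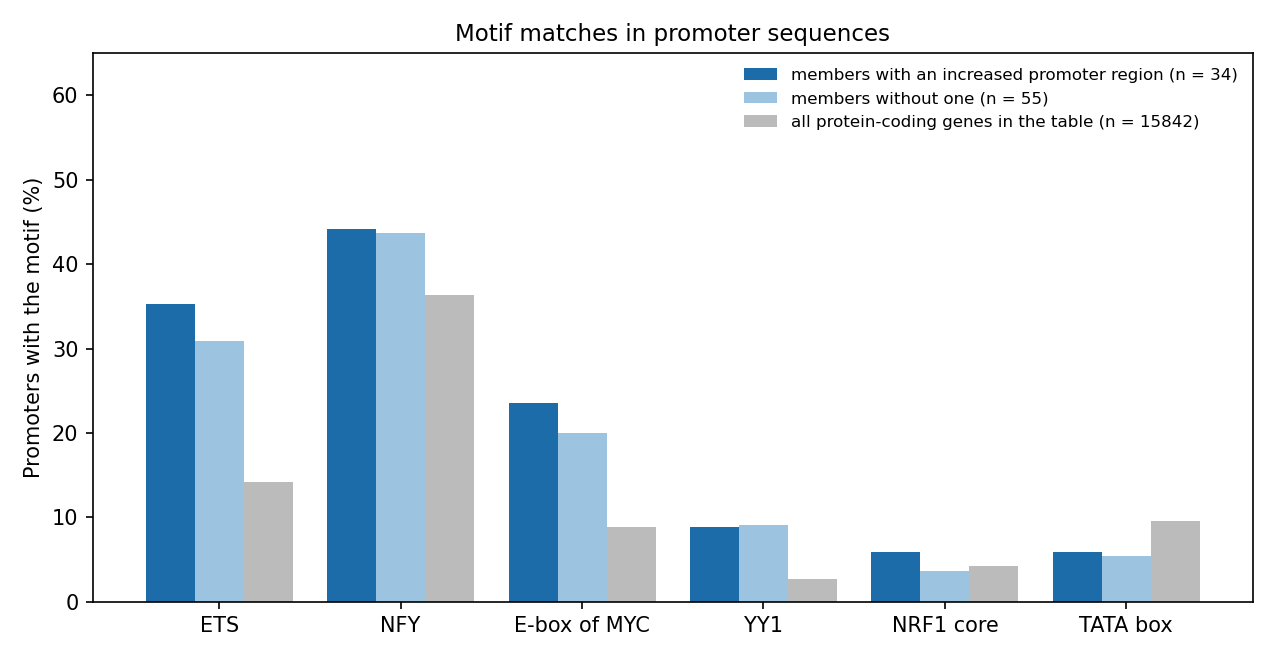
Percentage of RefSeq promoter sequences with each motif, for members with an increased promoter (n = 34), members without one (n = 55) and all protein-coding genes (n = 15842). The ETS-type motif reaches 35.3% and 30.9% in the members and 14.2% in all promoters.

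Genes that work beside the members were listed at shares from 18.2 to 50%, where the share of all protein-coding genes was 25.2%, and none of these lists held a decreased region. Of 11 mitochondrial translation factors, 2 were listed (18.2%), below the share of all genes. They were GFM1 (log2 fold 0.88), a mitochondrial elongation factor, and MTRF1L (1.30), a mitochondrial release factor, both over the start. Of 9 recycling and rescue genes, 4 were listed (44.4%), DENR (0.73), LTN1 (1.03) and MCTS1 (1.34) at the promoter and PELO (1.01) through a region 12.0 kb away. LTN1 and PELO act on stalled ribosomes, and MCTS1 and DENR work as a pair in recycling and reinitiation. Of 10 genes that bind messenger RNA ends, 5 were listed (50%), all with a promoter region. Their largest promoter folds were 1.27 for DDX3X, a helicase of the leader, 1.14 for LARP1, which binds the pyrimidine-run transcripts, 0.93 for PABPC1, the poly(A)-binding protein, and 0.88 and 0.99 for its partners PAIP1 and PAIP2. Of 12 synthetase partners, 4 were listed (33.3%), each at the promoter. They were GATB (0.88) and GATC (0.85), subunits of the mitochondrial amidotransferase, PUS1 (0.78), a pseudouridine synthase, and TARS3 (0.93), a relative of TARS1.

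For the signalling pathways that govern initiation, the same share of all protein-coding genes, 25.2%, stands beside the counts. In the integrated stress response, downstream of the eIF2 kinases, 4 of 14 genes had an increased region (28.6%), a share near that of all genes. DDIT3, a stress-induced transcription factor, had 110 reads in shPHF19 cells and 51.0 in Control cells over its start (FDR 6.06e-05). ATF3 (log2 fold 0.74) and ASNS (0.67) were listed at the promoter as well, each with a further region, and PSAT1 (0.80) was listed only through a region 142 kb away. ATF4 itself had no listed region. In the mTOR pathway 7 of 14 genes had an increased region (50%), 6 of them at the promoter. The largest promoter folds were 1.02 for RHEB, 0.82 for RICTOR, 0.75 for DEPTOR, 0.75 for AKT1S1, 0.74 for TSC1 and 0.70 for MLST8, while RPTOR (0.82) was listed only through a region 184 kb away. They include an activator (RHEB) and inhibitors (TSC1, DEPTOR, AKT1S1) of the pathway.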

How the data were processed

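Accessibility in 3 shPHF19 and 4 Control libraries was taken from 2 deposited lists of changed regions. Per the file headers, the authors gave for each region log2 mean normalised reads, overall and per group, a log2 fold, a p-value and an FDR, with the distance in base pairs to the nearest TSS. Bowtie2 2.4.1, Picard 2.2.4, deepTools 1.5.12, MACS2 2.2.6 and hg38 are named per the submitters' processing notes, with no role. Not given in the sources used here are the normalisation, the tool behind the folds, any shift for the transposase and the handling of reads with several matches. The column headed KP was read as shPHF19 and KC as Control, since the overall mean equals the group means weighted 3 to 4 (median weight 0.429). In 65 of 65 regions the authors' log2 fold was smaller than the difference of log2 group means. The number of regions tested (52675) was recovered from FDR, rank and p.

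The notes name hg38, but 5389 of 5963 deposited transcripts (90.4%) lay over 10 kb outside their RefSeq GRCh38.p14 gene, so coordinates were read as hg19 and RefSeq served for names, gene types, neighbours and promoter sequences only. No value per library, replicate test or depth could be had, and no test was added to the authors' FDR. Members with a listed region are named, except some that count in the totals but are not reported here. Full values are given for the 5 largest folds per class, all regions of genes with 2 or more, and release factors; other values shown were chosen after they were seen. Members, gene lists and motifs were chosen with earlier results of these data known. Recovery of the number of tests was checked on simulated p-values. The gene rule, the classes and the motif search were checked on made-up symbols and short sequences. Software was matplotlib 3.10.9, scipy 1.17.1, numpy 2.4.6, pandas 2.3.3 and Python 3.11.15.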

Additional observations from a re-analysis of the deposited data

How the results depend on the processing

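Of 91 alternative values for 24 results, 70 stayed close to the values reported and 21 moved. No value could turn its direction, since counts, shares and folds of increased regions cannot fall below 0. The count of 0 decreased regions could not change either, as those alternatives only take regions away. With an FDR of at most 0.01, 37 of the 65 regions were left, at 26 of 44 genes, 13 of 22 initiation genes and 8 of 17 synthetases, and the median log2 fold was 1.05 for all, 1.01 for initiation and 1.03 for synthetases. When the log2 fold had to reach 1, 22 regions were left, at 15 genes, 6 of them initiation genes and 5 synthetases. The medians were then 1.19 for all, 1.23 for initiation and 1.20 for synthetases, and 42.9% of synthetase regions lay at promoters. Fewer regions pass these limits by construction. Taking the difference of log2 group means in place of the deposited fold gave medians of 1.14 for all, 1.07 for initiation and 1.14 for synthetases. With only the 250 bases before the start, the ATF4-type motif was in 0 promoters in both forms and the YY1-type motif in 1, since those matches lie after the start. The 4 elongation genes were listed under every alternative tried, and counting EIF5A2 with them by function gave 5. Counting divergent starts for both genes, chosen after seeing the data, gave 48 genes in place of 44. No paired analysis was possible because the lists hold no value per library, and for the same reason no library could be left out.

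The main limits are the missing spread between libraries, the unknown depth and normalisation, and lists that hold only regions past the authors' threshold. Assignment to the nearest start is uncertain for distal regions and divergent genes.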
